A study of Saccharomyces cerevisiae with 54 samples.

Results

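Ribosome footprints of budding yeast were compared between 1.5 h and 0 h in sporulation medium, the first interval of a meiotic time course. The samples were chosen by their labels alone, and they are 5 of the 54 samples of the series: 3 footprint libraries of 1.5 h and 2 of 0 h. The series follows Saccharomyces cerevisiae through meiosis by ribosome profiling and by sequencing of mRNA and total RNA, and asks how transcript isoform changes affect translation. All 5 libraries come from cells of the SK1 strain background, which sporulates quickly and synchronously, and all 5 are labelled as meiotic cells in sporulation medium. No mutation, added agent or mating type is given in their labels. At 1.5 h, 1 library belongs to the main course of 10 states and 2 belong to a parallel set, numbered replicates 1 and 2. At 0 h, 1 library belongs to the course and 1 to the parallel set. The title of the parallel 0 h library says that it was prepared beside the main course for replicate 1, whereas those of the parallel 1.5 h libraries say only that they were prepared in parallel. Nothing in the labels says that replicates came from separate cultures, so the p-values below measure only how far these libraries spread, part of which may be technical.

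Budding yeast diploids enter meiosis when nitrogen and a fermentable carbon source run out. The transcription factor Ime1, with its DNA-binding partner Ume6, switches on the early meiotic genes, among them the kinase gene IME2. These early genes serve premeiotic DNA replication, the pairing of homologous chromosomes, the programmed DNA breaks made by Spo11 and their repair by recombination, while the transcription factor Ndt80 acts later, at the exit from prophase. A footprint is the stretch of mRNA that a ribosome protects from nuclease, so its abundance follows both the amount of an mRNA and the number of ribosomes on it.

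Values are RPKM (reads scaled to gene length and library size), as deposited, and each gene's 1.5 h values are given in the order course, replicate 1 and replicate 2, and its 0 h values in the order course and parallel. Reads recovered from the values came to 10.5, 4.47 and 8.66 M at 1.5 h, against 2.27 and 1.03 M at 0 h, so low genes were measured least well at 0 h. The median gene of those listed had 90.5, 109.7 and 101 RPKM at 1.5 h, against 51.1 and 55.5 RPKM at 0 h. In the 0 h libraries a few genes took a large share of the summed RPKM, with 26.0 and 31.1% in the top 10 genes, against 15.8, 14.0 and 17.7% at 1.5 h. Libraries were therefore centred on their median gene, and changes below are log2 differences, 1.5 h minus 0 h, of log2(RPKM + 1) after centring. The median change of all genes was -0.07 after centring and 0.74 without it. A call is a limma p, adjusted by the Benjamini-Hochberg method for the 5585 genes tested, of under 0.05.

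Footprints of 1260 of 5585 genes rose (22.6%) and those of 1425 fell (25.5%) at 1.5 h relative to 0 h, 48.1% of genes in all. The 1.5 h libraries all stood above both 0 h libraries in 32.2% of genes and all below in 35.9%. Of the called genes, 409 rose and 360 fell by over 2 on the log2 scale, and 56 rose and 37 fell by over 4. The split of calls depended on the scaling: 2718 genes were higher and 538 lower with the values as deposited, and 1290 were higher and 1329 lower with quantile normalization. All 2685 called genes had the same sign within the course and within the parallel set. This is no separate support, since both sets entered the fit that made the calls. Across the 5585 genes the changes of the 2 sets had a correlation of 0.805, given as a description, since genes are not independent replicates. With a term for preparation in place of the set, chosen after the data were seen because of the title of the parallel 0 h library, 563 genes were higher and 576 lower. Without the parallel 0 h library, 848 genes were higher and 757 lower. The counts of each list below are to be read against the shares of all genes, 22.6% higher and 25.5% lower. Statements that the times did not overlap are to be read against the 32.2% above and 35.9% below. They are also given as deposited, with quantile normalization, with the preparation term and without a library, wherever such a setting moved either count by over 1.5 times and by 2 genes or more. The preparation term set the parallel 1.5 h libraries apart from all others, although the labels do not call them a separate batch. Its change is that of the course 1.5 h library against both 0 h libraries. Without the parallel 0 h library the change is that within the course, and without either course library it is that within the parallel set. Fewer cells of a kind and less signal per cell cannot be told apart in these cultures.

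**Figure D1:**
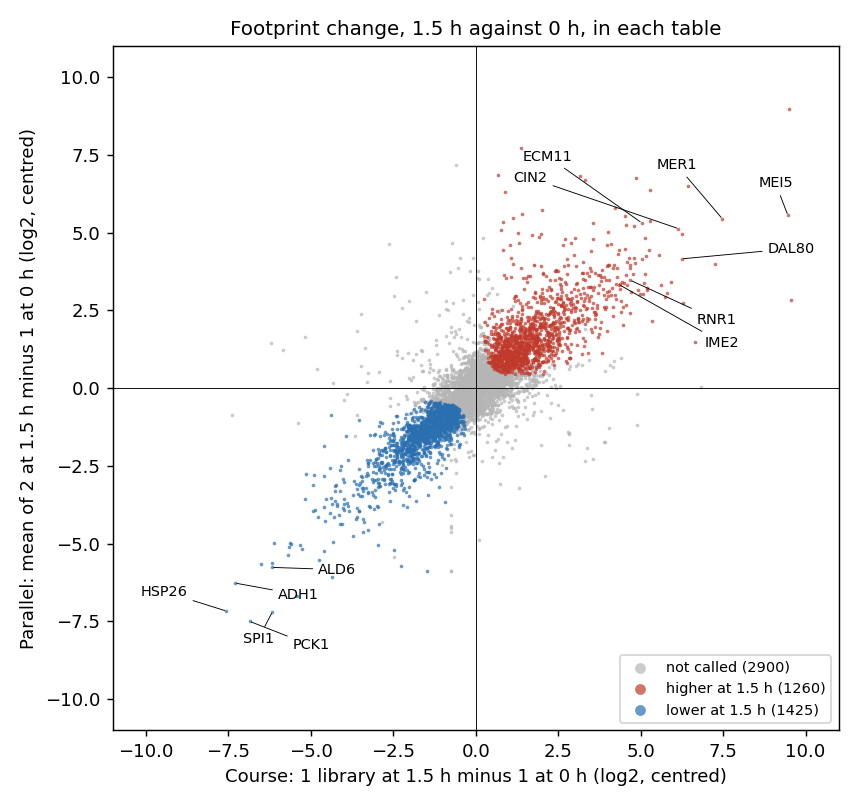
Each point is 1 of 5585 genes, with the footprint change between 1.5 h and 0 h in the course on the horizontal axis and in the parallel set on the vertical axis, both log2 differences of centred values. Red points (1260) were called higher at 1.5 h, blue points (1425) lower and grey points (2900) were not called, and called genes lie in the quadrants where both sets have the same sign.

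Genes of meiotic recombination were among the 12 largest rises. MEI5, whose protein helps load the recombinase Dmc1, had 1193, 1162 and 1402 RPKM at 1.5 h, against 0 and 14.0 RPKM at 0 h. Its change was 7.23 ± 0.81 (SE, limma adjusted p = 0.0014). Its partner SAE3 had 1279, 1251 and 1112 RPKM at 1.5 h, against 0 and 91.7 RPKM at 0 h, a change of 5.71 ± 1.36 (SE, limma adjusted p = 0.017). MER1, a meiosis-specific splicing regulator, had 300.1, 331 and 420.4 RPKM at 1.5 h, against 0 and 3.76 RPKM at 0 h (6.31, limma adjusted p = 0.00053). REC102, a core factor of double-strand break formation, had 259, 219.9 and 285 RPKM at 1.5 h, against 0 and 7.70 RPKM at 0 h (5.40, limma adjusted p = 0.0022). ECM11, a component of the central element of the synaptonemal complex, had 807, 1102 and 961 RPKM at 1.5 h, against 13.6 and 13.3 RPKM at 0 h, the tightest of these changes at 5.19 ± 0.21 (SE, limma adjusted p = 0.00027). The groups did not overlap in any of these genes because the ranking took only genes whose groups stood apart. Their 0 h level rested on few reads. The size of the change therefore depends on the pseudocount, as it does for every gene below with a 0 h value near 0. MER1 and REC102, with 0 h means of 1.88 and 3.85 RPKM, reached the mean of 5 RPKM needed for testing only through their 1.5 h values. So did every tested gene below whose 0 h values averaged under 5 RPKM. SAE3 lost its call with the preparation term (6.34), and its change was 9.57 without the parallel 0 h library and 2.82 without either course library.

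Other genes were also among these rises. DAD2, a subunit of the DASH complex that couples kinetochores to microtubules, had 204, 184 and 187 RPKM at 1.5 h, against 11.3 and 0 RPKM at 0 h. NRM1, a repressor of G1/S genes bound by MBF, had 111, 81.6 and 85.1 RPKM at 1.5 h, against 1.86 and 0 RPKM at 0 h. RAD59, a factor of single-strand annealing, had 190.1, 203 and 201 RPKM at 1.5 h, against 11.7 and 0 RPKM at 0 h. The changes were 5.24 for DAD2, 5.11 for NRM1 and 5.24 for RAD59, with limma adjusted p of 0.0026, 0.00049 and 0.0033. CIN2, which acts in tubulin folding, had 324, 264 and 344 RPKM at 1.5 h, against 1.72 and 3.79 RPKM at 0 h (5.56), and DCG1, a gene of the allantoin gene cluster, had 129, 445 and 189 RPKM at 1.5 h, against 0 and 4.19 RPKM at 0 h (5.52). DAD2 changed by 3.31 without the parallel 0 h library. RAD59 changed by 3.15 without the parallel 0 h library. MIN4 had 146, 184 and 142 RPKM at 1.5 h and SHE1, a spindle protein gene, had 64.9, 68.0 and 79.0 RPKM at 1.5 h. Both were listed at 0 in both 0 h libraries, so no fold is given. NRM1, CIN2, DCG1, MIN4 and SHE1 reached the mean of 5 RPKM needed for testing only through their 1.5 h values.

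The 12 largest falls, also taken only from genes whose groups stood apart, included genes of stress, carbon metabolism and the cell surface. HSP26, a small heat shock protein, had 225, 173 and 164 RPKM at 1.5 h, against 25250.0 and 13493 RPKM at 0 h. The change was -7.34 ± 0.21 (SE, limma adjusted p = 0.00015). PCK1, phosphoenolpyruvate carboxykinase, the committed enzyme of gluconeogenesis, had 594, 1315 and 637 RPKM at 1.5 h, against 40747 and 91830.5 RPKM at 0 h, a change of -7.22 ± 0.35 (SE, limma adjusted p = 0.00027). ADH1, the main fermentative alcohol dehydrogenase, had 461, 1574 and 287 RPKM at 1.5 h, against 43119.5 and 28702 RPKM at 0 h, a change of -6.71 ± 0.69 (SE, limma adjusted p = 0.0011). Its 1.5 h libraries differed among themselves, with replicate 1 highest, yet all lay far below 0 h. SPI1, which encodes a cell wall protein, had 311, 208 and 249 RPKM at 1.5 h, against 13236 and 18489 RPKM at 0 h (-6.75), and ALD6, a cytosolic acetaldehyde dehydrogenase, had 142, 291 and 113 RPKM at 1.5 h, against 6130.3 and 5492 RPKM at 0 h (-5.94). HXT7, a high-affinity hexose transporter nearly identical to HXT6, had 18.7, 32.1 and 24.4 RPKM at 1.5 h, against 445 and 584 RPKM at 0 h (-5.22). BTN2, which acts in the sorting of misfolded proteins, had 179, 73.2 and 185 RPKM at 1.5 h, against 2865 and 2988 RPKM at 0 h (-5.19), and HSP30, a membrane heat shock protein, 22.0, 23.6 and 30.1 RPKM at 1.5 h, against 694 and 530.3 RPKM at 0 h (-5.36). The remaining falls of this rank were TDH1 (-5.51), an isozyme of glyceraldehyde-3-phosphate dehydrogenase, VHR2 (-5.86), DFP3 (-5.47) and EGO4 (-5.26), each with a limma adjusted p of 0.00093 or less.

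**Figure D2:**
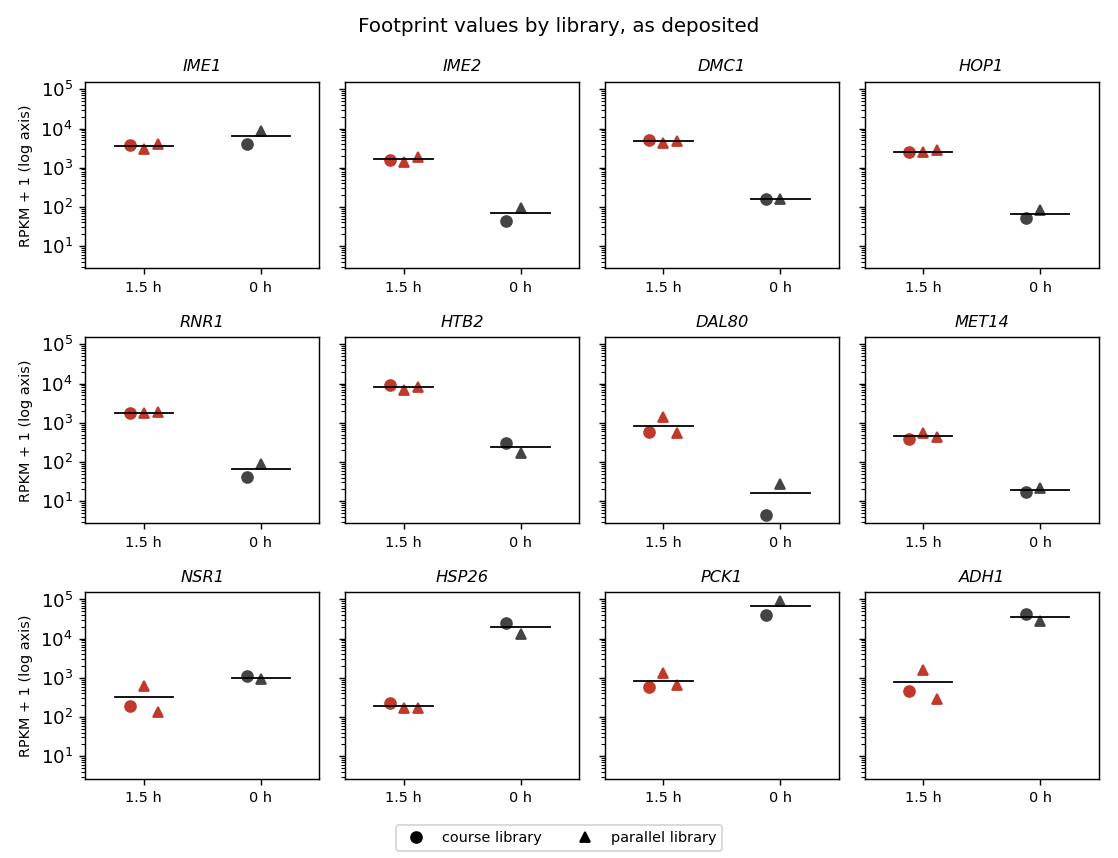
Footprint values of 12 genes in the 5 libraries, as RPKM + 1 on a log axis, with the 3 libraries of 1.5 h (red) left of the 2 of 0 h (dark grey), circles for the course, triangles for the parallel set and a line at the mean. IME2, DMC1, HOP1, RNR1, HTB2, DAL80 and MET14 are higher in every 1.5 h library than in either 0 h library, and NSR1, HSP26, PCK1 and ADH1 are lower in every one.

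Of 13 regulators of meiotic entry, 5 rose and 1 fell, with a median change of 0.28 beside -0.07 for all genes. IME1, the master activator, had 3827, 2959 and 4081 RPKM at 1.5 h, against 4053 and 8488 RPKM at 0 h. The course libraries were close to each other in RPKM and the parallel 0 h library was highest, and the centred change was -1.58 ± 0.36 (SE, limma adjusted p = 0.014). IME1 lost its call without the parallel 0 h library (-0.84), as deposited (-0.77), with quantile normalization (-0.72) and with the preparation term (-1.33). IME2, the kinase gene that Ime1 activates, had 1538, 1431 and 1916 RPKM at 1.5 h, against 43.7 and 90.4 RPKM at 0 h, a change of 3.76 ± 0.31 (SE, limma adjusted p = 0.00062). RIM4, an RNA-binding translational repressor of middle genes, had 12748, 14618 and 15713 RPKM at 1.5 h, against 1609 and 3194 RPKM at 0 h, a change of 1.75 ± 0.27 (SE, limma adjusted p = 0.0036). IME2 and RIM4 did not overlap between times. UME6, the DNA-binding partner of Ime1, had 209, 199 and 184 RPKM at 1.5 h, against 62.8 and 55.4 RPKM at 0 h (0.93). UME6 lost its call without the parallel 0 h library (0.96), without either course library (0.92) and with the preparation term (1.09). SLZ1, a member of the mRNA methylation complex, changed by 1.50. SLZ1 lost its call without the parallel 0 h library (1.11) and with the preparation term (1.59). RME1, a repressor of IME1 in haploid cells, had 162, 157 and 199 RPKM at 1.5 h, against 47.2 and 57.1 RPKM at 0 h (0.87). RME1 lost its call without the parallel 0 h library (1.01), without either course library (0.76), without replicate 2 of 1.5 h (0.78) and with the preparation term (0.91). IME4, the mRNA methyltransferase, had 197, 175 and 238 RPKM at 1.5 h, against 85.4 and 114 RPKM at 0 h, a difference of 0.18 ± 0.26 (SE, limma adjusted p = 0.58), and NDT80 had 16.6, 17.3 and 13.4 RPKM at 1.5 h, against 14.1 and 17.1 RPKM at 0 h, a difference of -0.80 ± 0.35 (SE, limma adjusted p = 0.11). Neither passed the test, and the sign of IME4 turned without either course library and that of NDT80 as deposited. The calls of meiotic entry regulators were 12 higher and 0 lower as deposited, 2 higher and 0 lower with the preparation term or without the parallel 0 h library and 3 higher and 1 lower without either course library.

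The genes listed for the chromosome axis and synaptonemal complex rose as a block. All 10 were called higher at 1.5 h, with a median change of 4.25 and a range of 3.01 to 5.19, where 22.6% of all genes rose. HOP1, which encodes an axis protein, had 2464, 2503 and 2798 RPKM at 1.5 h, against 51.8 and 80.5 RPKM at 0 h, a change of 4.43 ± 0.24 (SE, limma adjusted p = 0.0003). RED1, its partner on the axis, had 314, 300.2 and 322 RPKM at 1.5 h, against 4.23 and 8.17 RPKM at 0 h (4.63), and MEK1, the kinase that acts with them in partner choice, had 1273, 1029 and 1417 RPKM at 1.5 h, against 18.8 and 29.6 RPKM at 0 h (4.79). Both 0 h libraries were below every 1.5 h library in all 10 genes, beside 32.2% of all genes. ZIP1, the transverse filament of the synaptonemal complex, had 424, 382 and 384 RPKM at 1.5 h, against 13.5 and 22.0 RPKM at 0 h (3.60), and REC8, the meiotic cohesin subunit, had 975, 1043 and 1159 RPKM at 1.5 h, against 58.9 and 85.6 RPKM at 0 h, the smallest change of the list at 3.01 ± 0.22 (SE, limma adjusted p = 0.0005). The other members, GMC2, PCH2, MND1 and HOP2, changed by 3.98, 4.11, 4.40 and 3.49. Not every member is a structural gene: MND1 and HOP2 act in strand exchange.

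Of 17 genes of strand exchange and crossing over, 16 rose, with a median of 3.71. DMC1, the meiotic recombinase, had 4982, 4197 and 4835 RPKM at 1.5 h, against 159 and 159 RPKM at 0 h, a change of 4.07 ± 0.21 (SE, limma adjusted p = 0.0003). HED1, a regulator of meiotic strand exchange, had 2003, 1617 and 1846 RPKM at 1.5 h, against 32.9 and 33.0 RPKM at 0 h (4.95). The 0 h values were low but above 0 in both genes, and no 1.5 h library reached down to them. MSH4 and MSH5, the MutS homologues of the crossover pathway, changed by 4.21 and 3.71, and CST9, also called ZIP3, by 4.13. Of 10 genes of double-strand break formation, 8 rose, with a median of 2.29. SPO11, the break-forming protein, had 129, 98.5 and 122 RPKM at 1.5 h, against 10.2 and 7.46 RPKM at 0 h, a change of 2.82 ± 0.25 (SE, limma adjusted p = 0.00077). REC104, a partner of REC102, had 242, 232 and 313 RPKM at 1.5 h, against 5.25 and 5.79 RPKM at 0 h (4.49) and MEI4 had 196, 160.3 and 236 RPKM at 1.5 h, against 1.10 and 12.1 RPKM at 0 h (4.22). RAD50 and MRE11, which also act in mitotic cells, were the 2 members not called, with differences of -0.52 and 0.32. The count of calls in these 3 lists of recombination genes did not move in this way in any alternative run.

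Genes that act later in meiosis were mixed. Of 23 middle genes tested, 5 rose and 3 fell, beside 22.6% and 25.5% of all genes, with a median of 0.001, as deposited 0.81 and with quantile normalization -0.54. The members that rose were CLB6, CLB5, AMA1, CLB4 and MPC54, of which CLB5 and CLB6 are cyclins of S phase. AMA1, a meiosis-specific activator of the anaphase-promoting complex, had 454, 317 and 453 RPKM at 1.5 h, against 16.4 and 18.1 RPKM at 0 h (3.67). CLB4 had 72.7, 63.9 and 84.3 RPKM at 1.5 h, against 9.70 and 2.14 RPKM at 0 h (2.99), and MPC54, a component of the meiotic spindle pole, changed by 1.16. MPC54 lost its call without the parallel 0 h library (0.94) and with the preparation term (1.25). CLB3, IRC18 and SPR28 fell, with changes of -1.46, -1.63 and -0.84. SPR28 lost its call without the parallel 0 h library (-0.51), without replicate 1 of 1.5 h (-0.81), without replicate 2 of 1.5 h (-0.79), as deposited (-0.02) and with the preparation term (-0.96). The calls of middle genes were 8 higher and 1 lower as deposited, 6 higher and 5 lower with quantile normalization, 4 higher and 6 lower without the parallel 0 h library and 9 higher and 3 lower without either course library. The summed footprints of 7 markers of cells past prophase (SPS4, SPS1, SMK1, SPR3, CLB3, CLB1 and CDC5) came to 197, 236 and 172 RPKM at 1.5 h, against 315 and 96.3 RPKM at 0 h. The groups overlapped, and the same sum was 17683 RPKM in the course library of 4.5 h and 211732 RPKM in that of 8 h. SPS4, a middle sporulation gene, had 87.1, 72.2 and 38.2 RPKM at 1.5 h, against 204 and 23.7 RPKM at 0 h, and the course 0 h library was highest. Of 7 genes of monopolin and meiotic cohesion, SPO13 (3.42), REC8 and CSM1 (1.41) rose. CSM1 lost its call without the parallel 0 h library (1.13) and with the preparation term (1.65). The calls of monopolin and cohesion genes were 7 higher and 0 lower as deposited. Of 16 spore wall genes, 3 rose and 5 fell, with a median of -0.91, which was -0.10 as deposited. The calls of spore wall genes were 3 higher and 3 lower as deposited, 1 higher and 1 lower with the preparation term and 1 higher and 4 lower without the parallel 0 h library or without the course 0 h library. OSW2, SPS100 and SPS22 changed by -3.95, -3.40 and -2.29, and CHS3, a chitin synthase gene, rose by 1.66. SPS100 lost its call with the preparation term (-2.91). SPS22 lost its call without the parallel 0 h library (-1.12) and with the preparation term (-2.07).

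Genes of S phase rose with the recombination genes. Of 31 genes of the replication fork and of deoxynucleotide supply, 26 rose and 2 fell, with a median of 2.27. RNR1, which encodes the large subunit of ribonucleotide reductase, had 1816, 1728 and 1878 RPKM at 1.5 h, against 40.8 and 89.0 RPKM at 0 h, a change of 3.99 ± 0.32 (SE, limma adjusted p = 0.00056). POL30, the sliding clamp PCNA, had 1606, 1119.7 and 1438 RPKM at 1.5 h, against 48.3 and 47.4 RPKM at 0 h, a change of 4.04 ± 0.24 (SE, limma adjusted p = 0.00034). CDC21, thymidylate synthase, had 703, 735 and 958 RPKM at 1.5 h, against 25.5 and 29.8 RPKM at 0 h (3.94). These 3 genes did not overlap between times. The 2 members that fell were the genes of the small subunit of ribonucleotide reductase, RNR4, with 769, 956 and 587 RPKM at 1.5 h, against 2119.6 and 2256 RPKM at 0 h (-2.35), and RNR2, with 1119.9, 1381 and 873 RPKM at 1.5 h, against 1275 and 1474 RPKM at 0 h (-1.14). RNR2 lost its call without the parallel 0 h library (-0.94), without the course 1.5 h library (-1.28), as deposited (-0.32), with quantile normalization (-0.58) and with the preparation term (-1.01). RNR3, RFC1 and POL31 were not called. Of 23 genes of origins and the MCM helicase, 13 rose and 2 fell, with a median of 1.36. CDC45, a subunit of the active replicative helicase, rose by 3.53, PSF2, of the GINS complex, by 2.98, and MCM2 and MCM6, of the MCM ring, by 2.61 and 2.51. CDC6, the loader of that ring, had 132, 111 and 133 RPKM at 1.5 h, against 8.66 and 17.2 RPKM at 0 h (2.38). TAH11, which encodes the loading factor Cdt1, had 23.5, 21.0 and 22.0 RPKM at 1.5 h, against 86.2 and 103 RPKM at 0 h and fell, a change of -2.86 ± 0.26 (SE, limma adjusted p = 0.00077), and ORC4, of the origin recognition complex, changed by -1.53. CDC45 lost its call with the preparation term (3.77), and its change was 5.35 without the parallel 0 h library and 2.16 without either course library.

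All 8 core histone genes rose, with a median of 3.26 and a range of 2.00 to 4.41. HTB2, which encodes histone H2B, had 9006, 7026 and 8253 RPKM at 1.5 h, against 309 and 168 RPKM at 0 h, a change of 4.41 ± 0.24 (SE, limma adjusted p = 0.0003). HHF1, for histone H4, had 21449, 19364 and 19867 RPKM at 1.5 h, against 809 and 449 RPKM at 0 h (4.32), and HTA2, for histone H2A, had 3549, 4438 and 3966 RPKM at 1.5 h, against 178 and 83.5 RPKM at 0 h (4.25). Every 1.5 h library stood above both 0 h libraries in all 8 genes, beside 32.2% of all genes. However, each histone has 2 nearly identical genes, and the sources used here do not say how reads were shared between such copies. Of 12 genes of histone chaperones and variants, 8 rose and none fell, with a median of 1.51. ASF1, a histone chaperone, had 1072, 897 and 989.6 RPKM at 1.5 h, against 37.8 and 32.6 RPKM at 0 h (3.99), CAC2, of the chromatin assembly factor, changed by 3.49, and CSE4, the centromeric histone, by 2.63. Of 9 cohesin genes, 7 rose, with a median of 1.69. SCC2, a subunit of the cohesin loader, had 408, 449 and 522 RPKM at 1.5 h, against 10.7 and 28.8 RPKM at 0 h (3.68). MCD1, the mitotic partner of REC8, had 27.2, 48.2 and 32.6 RPKM at 1.5 h, against 17.2 and 31.0 RPKM at 0 h and did not pass the test (-0.34).

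Of 28 kinetochore genes, 20 rose and 1 fell, with a median of 1.71. IPL1, the Aurora kinase, had 201, 223 and 237 RPKM at 1.5 h, against 7.37 and 8.13 RPKM at 0 h, a change of 3.82 ± 0.22 (SE, limma adjusted p = 0.00033), and DUO1, of the DASH complex, had 210.2, 274 and 232 RPKM at 1.5 h, against 7.50 and 16.5 RPKM at 0 h (3.37). Both stood apart between times. NDC80, a subunit of the microtubule-binding outer kinetochore, had 38.8, 65.9 and 39.0 RPKM at 1.5 h, against 51.5 and 105 RPKM at 0 h and was the only member called lower, a change of -1.58 ± 0.32 (SE, limma adjusted p = 0.0091). NDC80 lost its call without the parallel 0 h library (-1.16), as deposited (-0.77) and with the preparation term (-1.63). Other subunits of the same complex rose, SPC24 by 2.15, SPC25 by 1.19 and NUF2 by 1.26. SPC25 lost its call without the parallel 0 h library (0.91) and with the preparation term (1.44). NUF2 lost its call without either course library (1.06), without replicate 2 of 1.5 h (1.17) and with the preparation term (1.36). Of the S-phase cyclins, CLB5 had 282, 365 and 390.1 RPKM at 1.5 h, against 18.5 and 43.2 RPKM at 0 h (2.61) and CLB6 had 65.8, 66.9 and 74.9 RPKM at 1.5 h, against 2.37 and 0 RPKM at 0 h (4.56), and both were called higher. SIC1, the inhibitor of their kinase, had 208, 236 and 172 RPKM at 1.5 h, against 177 and 146 RPKM at 0 h and was not called (-0.45).

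Of 11 G1 cyclins and regulators, 6 rose and 2 fell, with a median of 1.26. The calls of G1 cyclins and regulators were 3 higher and 1 lower with the preparation term. CLN3, the upstream G1 cyclin, had 23.0, 22.7 and 26.7 RPKM at 1.5 h, against 48.8 and 55.5 RPKM at 0 h and fell, a change of -1.92 ± 0.27 (SE, limma adjusted p = 0.0027), whereas WHI5, the repressor of G1/S genes, had 258, 289 and 242 RPKM at 1.5 h, against 23.2 and 20.5 RPKM at 0 h (2.72). STB1 rose by 3.47. CLN1 and CLN2, used here with CLB2 as markers of growing cells, were low at both times: the 3 genes summed to 60.8, 62.1 and 68.4 RPKM at 1.5 h, against 10.3 and 9.16 RPKM at 0 h. The sums did not overlap, and the growing cells of the course had 178 RPKM. CLN1 lost its call without either course library (1.12), without replicate 2 of 1.5 h (1.35), with quantile normalization (1.10) and with the preparation term (1.59). CLN2 lost its call without replicate 2 of 1.5 h (2.84) and with the preparation term (3.01). Of 11 genes of mitotic cyclins and regulators, CLB4 rose and CLB3 and CDH1 fell, with a median of 0.25 that was 1.06 as deposited. The calls of mitotic cyclins and regulators were 6 higher and 0 lower as deposited. CLB3 had 22.7, 35.6 and 29.3 RPKM at 1.5 h, against 44.0 and 43.9 RPKM at 0 h, a change of -1.46 ± 0.27 (SE, limma adjusted p = 0.0067). CLB3 lost its call as deposited (-0.64). CDH1, an activator of the anaphase-promoting complex, changed by -1.03. CDH1 lost its call without either course library (-0.84), as deposited (-0.22) and with the preparation term (-1.17).

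Mating genes, which an a/alpha diploid represses, gave a mixed result. Of 13 a-specific and haploid-specific genes tested, 5 rose and 2 fell, with a median of 0.60. MFA2, an a-factor gene, had 583, 1435 and 1266 RPKM at 1.5 h, against 225 and 248 RPKM at 0 h (1.17), FAR1, a kinase inhibitor of the pheromone response, changed by 1.89, and STE6, the a-factor exporter, changed by -1.56. The calls of a-specific and haploid-specific genes were 8 higher and 0 lower as deposited, 0 higher and 0 lower with the preparation term, 3 higher and 1 lower without the parallel 0 h library, 3 higher and 2 lower without replicate 1 of 1.5 h and 2 higher and 0 lower without replicate 2 of 1.5 h. MFA2 lost its call without the parallel 0 h library (0.61) and with the preparation term (0.58). FAR1 lost its call without replicate 1 of 1.5 h (1.81), without replicate 2 of 1.5 h (2.04), with quantile normalization (1.29) and with the preparation term (1.91). STE6 lost its call without the course 0 h library (-1.30), without replicate 2 of 1.5 h (-1.55), as deposited (-0.75) and with the preparation term (-1.88). AGA2 was listed at 0 in both 0 h libraries. The 7 markers of cells that are not a/alpha, of which 6 were tested and MFA2 and RME1 were called, summed to 859.8, 1921 and 1735 RPKM at 1.5 h, against 365 and 325 RPKM at 0 h, and to 6436 RPKM in the course library of a MATa/a diploid, which cannot enter meiosis. MFA2 made up most of each sum. Their part in other results was not tested.

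**Figure D3:**
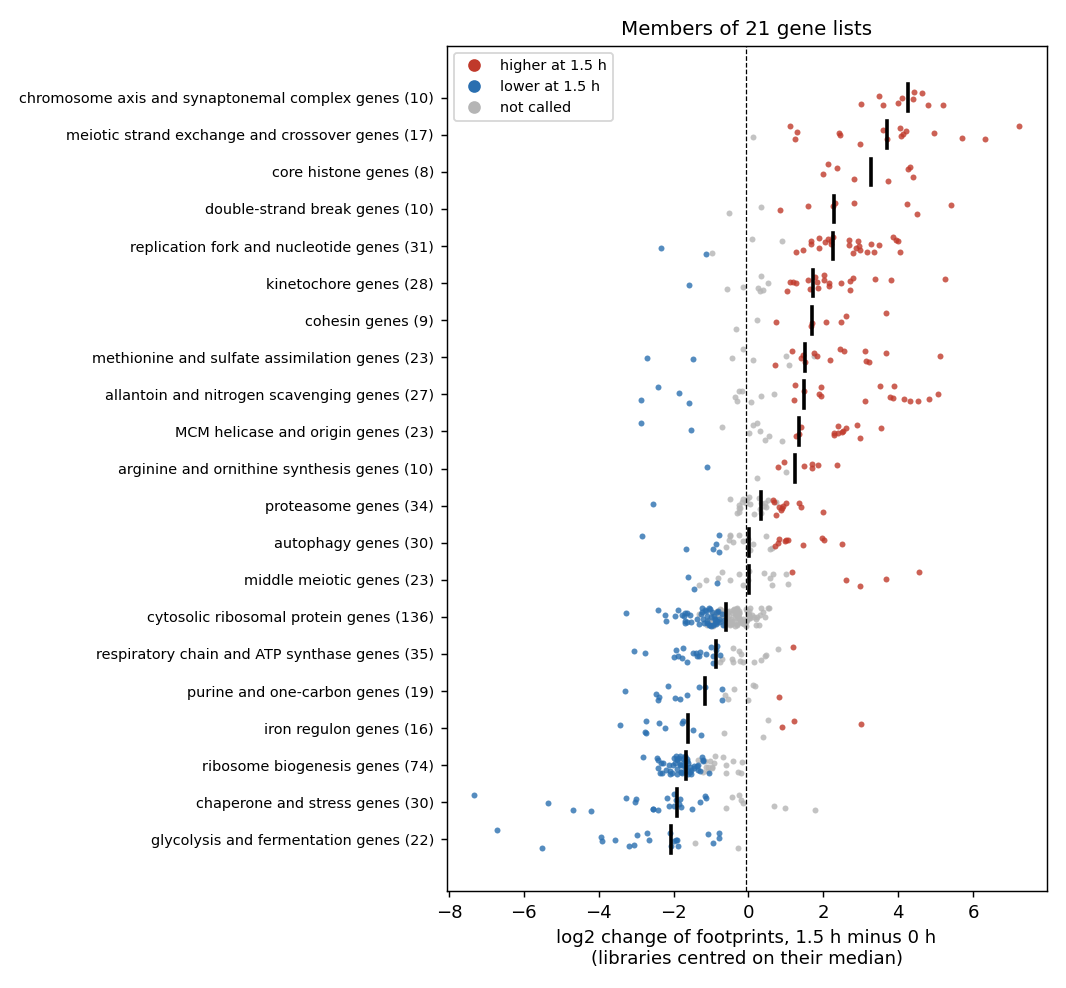
Log2 footprint change between 1.5 h and 0 h of the tested members of 21 gene lists, each a point, with the number tested in brackets, a black bar at the list median and a dashed line at the median of all genes (-0.07). Axis, strand exchange and histone genes lie at the top right with medians of 4.25, 3.71 and 3.26, and chaperone and glycolysis genes at the bottom left with -1.90 and -2.08.

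Carbon metabolism moved the other way. Of 22 genes of glycolysis and fermentation, 20 fell and none rose, with a median of -2.08, beside 25.5% of all genes that fell. GPM1, phosphoglycerate mutase, had 864, 1283 and 656 RPKM at 1.5 h, against 9435 and 6717 RPKM at 0 h, a change of -3.93 ± 0.32 (SE, limma adjusted p = 0.00061). PGK1, phosphoglycerate kinase, had 2389.9, 2743 and 1601 RPKM at 1.5 h, against 15428 and 9136 RPKM at 0 h (-3.18), and CDC19, pyruvate kinase, had 1704, 2182 and 1282 RPKM at 1.5 h, against 8213 and 7221 RPKM at 0 h (-2.99). No 1.5 h library reached either 0 h library in these genes. PDC1, pyruvate decarboxylase, changed by -2.71. Near-identical copies such as TDH1 (-5.51) and TDH2 (-3.56), and ENO1 (-3.92) and ENO2 (-3.04), cannot be told apart with certainty. PDC5 and ADH2 were not called (-1.44 and -0.28), but ADH2 was called higher with quantile normalization (1.19). The list stayed negative as deposited (-1.26).

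Of 18 genes of gluconeogenesis, the glyoxylate cycle and acetate use, 9 fell and 1 rose, with a median of -0.72, which became 0.09 as deposited and -0.02 with quantile normalization. The calls of gluconeogenesis, glyoxylate and acetate genes were 6 higher and 6 lower as deposited and 6 higher and 7 lower with quantile normalization. PCK1 and FBP1, the enzymes specific to gluconeogenesis, fell most. FBP1, fructose-1,6-bisphosphatase, had 164, 205 and 159 RPKM at 1.5 h, against 1051 and 2502 RPKM at 0 h, a change of -4.12 ± 0.32 (SE, limma adjusted p = 0.00054). ICL1, isocitrate lyase of the glyoxylate cycle, had 7831, 8057 and 6959 RPKM at 1.5 h, against 13188 and 19014 RPKM at 0 h (-1.90), and CAT8, an activator of gluconeogenic genes, had 157, 158 and 169.6 RPKM at 1.5 h, against 557 and 686 RPKM at 0 h (-2.77). Acetate uptake differed from them: ADY2, an acetate transporter, had 107104, 79866 and 118669 RPKM at 1.5 h, against 62954 and 54012 RPKM at 0 h, the highest value of any gene in each 1.5 h library, with a centred difference of 0.001. Of 9 hexose transporter genes tested, 5 fell and 1 rose, with a median of -1.55, and HXT6 changed by -3.97 beside its near copy HXT7.

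Genes of mitochondrial metabolism were mixed. Of 18 TCA cycle genes, 7 fell and 2 rose, with a median of -0.30 that was 0.52 as deposited and 0.20 with quantile normalization. KGD1, of 2-oxoglutarate dehydrogenase, had 858, 975 and 925 RPKM at 1.5 h, against 1664 and 3478 RPKM at 0 h, a change of -2.29 ± 0.28 (SE, limma adjusted p = 0.0018), while IDH2, of isocitrate dehydrogenase, had 6054, 6014 and 5930.3 RPKM at 1.5 h, against 1229 and 2018 RPKM at 0 h (1.07). IDH2 lost its call without either course library (0.71) and with the preparation term (1.22). The calls of TCA cycle genes were 8 higher and 2 lower as deposited or with quantile normalization, 0 higher and 2 lower with the preparation term, 2 higher and 2 lower without the parallel 0 h library, 0 higher and 7 lower without either course library and 4 higher and 7 lower without replicate 1 of 1.5 h. Of 35 nuclear genes of the respiratory chain and ATP synthase, 20 fell and 1 rose, with a median of -0.87 that was -0.06 as deposited. The calls of respiratory chain and ATP synthase genes were 7 higher and 8 lower as deposited, 6 higher and 8 lower with quantile normalization, 0 higher and 8 lower with the preparation term, 1 higher and 9 lower without the parallel 0 h library and 3 higher and 20 lower without replicate 1 of 1.5 h. QCR10, of the bc1 complex, changed by -3.05, ATP1 and ATP2, the catalytic core of ATP synthase, by -1.99 and -1.94, and CYC7, a minor cytochrome c, rose by 1.20. CYC7 lost its call without either course library (0.66) and with the preparation term (1.20), and its change was 1.92 without the parallel 0 h library. Of 8 genes of the mitochondrial genome, 3 reached the mean of 5 RPKM and were tested, and all 3 were called lower. Without that filter 4 of 6 were called lower, and COX2 passed it only through its 0 h values. COX2, a subunit of cytochrome oxidase, had 0, 0 and 0 RPKM at 1.5 h, against 1.84 and 28.5 RPKM at 0 h, COX3 had 3.44, 8.94 and 10.6 RPKM at 1.5 h, against 27.4 and 109 RPKM at 0 h (-3.88), and ATP8 changed by -3.30. COX2 was listed at 0 in every 1.5 h library, so no fold is given, and it lost its call without replicate 1 of 1.5 h, without replicate 2 of 1.5 h and with the preparation term. Of 14 genes of fatty acid beta-oxidation, 6 fell and 1 rose, with a median of -0.44 that was 0.37 as deposited and 0.08 with quantile normalization, and IDP3, a peroxisomal isocitrate dehydrogenase, fell most (-1.93). The calls of beta-oxidation genes were 4 higher and 1 lower as deposited, 2 higher and 2 lower with quantile normalization, 0 higher and 1 lower with the preparation term or without either course library and 0 higher and 3 lower without the parallel 0 h library.

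Of 19 genes of trehalose and glycogen, 11 fell and 3 rose, with a median of -0.81, -0.001 as deposited. GSY2, the main glycogen synthase, had 484, 470.3 and 504 RPKM at 1.5 h, against 1889 and 1252 RPKM at 0 h, a change of -2.43 ± 0.22 (SE, limma adjusted p = 0.00079), GPH1, glycogen phosphorylase, changed by -1.96, and TSL1, of the trehalose synthase complex, by -1.89. Those that rose were NTH2, a trehalase gene (1.70), PIG1 (1.64) and SGA1, a glucoamylase of sporulating cells (1.15). SGA1 had 68.8, 53.1 and 88.2 RPKM at 1.5 h, against 21.0 and 14.2 RPKM at 0 h. SGA1 lost its call without the parallel 0 h library (0.91), without either course library (1.33), without replicate 2 of 1.5 h (0.92), with quantile normalization (0.95) and with the preparation term (1.21). PIG1 lost its call without either course library (1.07) and with the preparation term (1.71). The calls of trehalose and glycogen genes were 4 higher and 6 lower as deposited, 1 higher and 7 lower with the preparation term, 2 higher and 7 lower without the parallel 0 h library and 1 higher and 8 lower without either course library.

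Genes for scavenging nitrogen rose. Of 27 genes of allantoin use and nitrogen scavenging tested, 16 rose and 4 fell, with a median of 1.48. The calls of allantoin and nitrogen genes were 10 higher and 4 lower with the preparation term. DAL80, a repressor in the nitrogen catabolite circuit that is itself induced in poor nitrogen, had 568, 1434 and 542 RPKM at 1.5 h, against 3.42 and 26.4 RPKM at 0 h, a change of 5.05 ± 0.58 (SE, limma adjusted p = 0.0015). DAL7, a malate synthase of the allantoin pathway, had 141, 634 and 183 RPKM at 1.5 h, against 0.799 and 8.81 RPKM at 0 h (4.82), and MEP2, the high-affinity ammonium permease, had 4238, 5687 and 4439 RPKM at 1.5 h, against 49.9 and 279 RPKM at 0 h (4.30). In DAL80 and DAL7 replicate 1 was highest of the 1.5 h libraries, and no gene of the 3 overlapped between times. The general amino acid permease gene GAP1 rose by 1.93. PUT4, the proline permease, had 116, 65.8 and 113 RPKM at 1.5 h, against 594 and 315 RPKM at 0 h and fell (-2.88), as did PUT1 (-1.85), proline oxidase, GDH2 (-2.41), a catabolic glutamate dehydrogenase, and GLN1 (-1.59), glutamine synthetase. GLN1 lost its call with quantile normalization (-0.64).

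Of 23 genes of methionine synthesis and sulfate assimilation, 15 rose and 2 fell, with a median of 1.50. MET32, a transcription factor of the pathway, had 109, 107 and 90.3 RPKM at 1.5 h, against 2.49 and 0 RPKM at 0 h, a change of 5.11 ± 0.44 (SE, limma adjusted p = 0.00065). MET14, adenylylsulfate kinase, had 381, 545 and 435 RPKM at 1.5 h, against 16.4 and 20.6 RPKM at 0 h, a change of 3.67 ± 0.21 (SE, limma adjusted p = 0.00033). MET3, ATP sulfurylase, changed by 3.22 and MET16, which follows in the pathway, by 3.10. MUP1, the methionine permease, had 66.9, 72.9 and 62.8 RPKM at 1.5 h, against 371 and 189 RPKM at 0 h and fell (-2.70), as did SAM1, a synthase of S-adenosylmethionine (-1.48). Of 10 genes of arginine and ornithine synthesis, 7 rose and 1 fell, with a median of 1.25. ARG3 changed by -1.11. SAM1 lost its call without either course library (-1.19), as deposited (-0.67) and with the preparation term (-1.64). ARG3 lost its call without the parallel 0 h library (-1.17), without either course library (-1.07), as deposited (-0.30) and with the preparation term (-1.36). The calls of arginine and ornithine genes were 4 higher and 0 lower with the preparation term or without the parallel 0 h library.

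Other amino acid genes were mixed. Of 24 genes of histidine, lysine and branched-chain synthesis tested, 11 rose and 3 fell, with a median of 0.74. The calls of these genes were 18 higher and 2 lower as deposited, 2 higher and 2 lower with the preparation term and 4 higher and 2 lower without the parallel 0 h library or without either course library. LEU1, of leucine synthesis, rose by 2.29 and BAT2, the cytosolic branched-chain aminotransferase, changed by -3.31, opposite to the mitochondrial BAT1 (2.07). LEU1 lost its call without either course library (1.52) and with the preparation term (2.18). BAT1 lost its call without the parallel 0 h library (2.19), without either course library (1.98) and with the preparation term (1.71). GCN4, the activator of amino acid synthesis genes, had 769, 1033 and 608 RPKM at 1.5 h, against 132 and 313 RPKM at 0 h and was not called (1.04). Of 20 genes of aromatic, threonine and serine synthesis, 6 rose and 4 fell (median 0.24). The calls of aromatic, threonine and serine genes were 12 higher and 1 lower as deposited, 6 higher and 2 lower with quantile normalization, 0 higher and 1 lower with the preparation term and 1 higher and 2 lower without the parallel 0 h library. Of 19 genes of purine synthesis and one-carbon metabolism, 12 fell and 1 rose, with a median of -1.16. ADE17, of the last steps of purine synthesis, had 154, 245 and 179 RPKM at 1.5 h, against 752 and 1317 RPKM at 0 h, a change of -3.30 ± 0.24 (SE, limma adjusted p = 0.00047), and SHM2, serine hydroxymethyltransferase, had 778, 962 and 696 RPKM at 1.5 h, against 2142 and 2724 RPKM at 0 h (-2.43). MTD1, of one-carbon metabolism, changed by -2.40 and IMD4, an IMP dehydrogenase, by -2.47. IMD4 lost its call with the preparation term (-2.54). The calls of purine genes were 3 higher and 8 lower as deposited and 0 higher and 7 lower with the preparation term.

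Chaperone genes fell with the carbon genes. Of 30 chaperone and stress genes, 22 fell and none rose, with a median of -1.90 (-1.09 as deposited). The calls of chaperone and stress genes were 3 higher and 17 lower as deposited, 3 higher and 20 lower with quantile normalization and 3 higher and 22 lower without replicate 1 of 1.5 h. HSP104, the disaggregase, had 670.4, 697 and 709 RPKM at 1.5 h, against 7747 and 6824 RPKM at 0 h, a change of -4.20 ± 0.20 (SE, limma adjusted p = 0.00027). SSA4, an inducible Hsp70, had 91.5, 39.8 and 76.8 RPKM at 1.5 h, against 1095 and 963 RPKM at 0 h (-4.68), and HSP78, a mitochondrial disaggregase, changed by -3.27. HSP60, the mitochondrial chaperonin, had 809, 727 and 747 RPKM at 1.5 h, against 3092 and 2195 RPKM at 0 h (-2.54). The groups did not overlap in these genes. The stress gene HSP12 had 47390.3, 18546 and 40208 RPKM at 1.5 h, against 3254 and 8812 RPKM at 0 h and was not called (1.78), and the catalase gene CTT1 had 68.6, 21.8 and 73.1 RPKM at 1.5 h, against 14.2 and 13.9 RPKM at 0 h (0.97, not called).

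Proteasome genes had small changes. Of 34 tested, 11 rose and 1 fell, with a median of 0.34. The calls of proteasome genes were 29 higher and 1 lower as deposited, 20 higher and 1 lower with quantile normalization, 1 higher and 1 lower with the preparation term or without the parallel 0 h library, 3 higher and 1 lower without either course library and 5 higher and 1 lower without replicate 2 of 1.5 h. RPN4, the transcription factor of proteasome genes, had 466, 445 and 515 RPKM at 1.5 h, against 1336 and 1818 RPKM at 0 h and fell, a change of -2.56 ± 0.23 (SE, limma adjusted p = 0.00077), whereas PRE6, a core subunit, had 2614, 1859 and 2424 RPKM at 1.5 h, against 398 and 289 RPKM at 0 h (1.99). Of 30 autophagy genes, 10 rose and 6 fell, with a median of 0.02 that was 0.83 as deposited. The calls of autophagy genes were 18 higher and 2 lower as deposited, 3 higher and 2 lower with the preparation term or without the parallel 0 h library, 6 higher and 2 lower without either course library and 4 higher and 6 lower without replicate 2 of 1.5 h. ATG1, the kinase that starts autophagy, had 459, 620.0 and 527 RPKM at 1.5 h, against 103 and 60.2 RPKM at 0 h (1.95), and its partner ATG13 had 157, 194 and 199.9 RPKM at 1.5 h, against 20.8 and 27.5 RPKM at 0 h (2.01), while ATG5 fell (-2.85). ATG8, the membrane-bound ubiquitin-like protein, had 8828, 10478 and 9817 RPKM at 1.5 h, against 4738 and 5283 RPKM at 0 h and was not called (0.11). Of 11 genes of vacuolar proteases and inhibitors, 3 fell and none rose, with a median of -0.36 that was 0.45 as deposited and 0.36 with quantile normalization. The calls of vacuolar protease genes were 3 higher and 0 lower as deposited, 3 higher and 1 lower with quantile normalization, 0 higher and 0 lower with the preparation term and 0 higher and 1 lower without the parallel 0 h library. PBI2, a proteinase inhibitor, APE3 and DAP2 changed by -1.37, -1.19 and -0.81, and none of the 3 was called as deposited. APE3 lost its call without the parallel 0 h library (-1.23), as deposited (-0.38), with quantile normalization (-0.60) and with the preparation term (-1.12). PBI2 lost its call as deposited (-0.56), with quantile normalization (-0.41) and with the preparation term (-0.98). DAP2 lost its call without the parallel 0 h library (-1.19), without either course library (-0.52), without replicate 2 of 1.5 h (-0.78) and with the preparation term (-1.02).

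Of 16 genes of the iron regulon tested, 10 fell and 3 rose, with a median of -1.61. The calls of iron regulon genes were 1 higher and 7 lower with the preparation term and 1 higher and 9 lower without the parallel 0 h library. ARN2, a siderophore transporter, had 39.6, 111 and 37.0 RPKM at 1.5 h, against 381 and 294 RPKM at 0 h, a change of -3.44 ± 0.48 (SE, limma adjusted p = 0.0027). FET3, the multicopper oxidase of high-affinity uptake, had 312, 663 and 309 RPKM at 1.5 h, against 1812 and 1252 RPKM at 0 h (-2.74). ISU2, a scaffold for iron-sulfur clusters, rose by 2.99. Of 15 genes of the phosphate regulon, 4 rose and 4 fell, with a median of 0.51 that was 1.33 as deposited. The calls of phosphate regulon genes were 8 higher and 2 lower as deposited, 1 higher and 2 lower with the preparation term, 2 higher and 4 lower without the parallel 0 h library and 3 higher and 2 lower without either course library. PHM6 rose by 2.78 and PHO3, an acid phosphatase, changed by -2.48. PHM6 lost its call with the preparation term (2.58), and its change was 1.66 without the parallel 0 h library. PHO3 lost its call with the preparation term (-2.44). Of 23 genes of ergosterol synthesis, 5 rose and 6 fell, with a median of 0.11. The calls of ergosterol genes were 15 higher and 2 lower as deposited, 8 higher and 3 lower with quantile normalization, 1 higher and 3 lower with the preparation term, 2 higher and 2 lower without the parallel 0 h library, 0 higher and 2 lower without either course library and 2 higher and 4 lower without replicate 2 of 1.5 h. ERG3, of the late pathway, changed by -1.52 and ERG10, of its first step, rose by 1.11. ERG10 lost its call without either course library (0.86). Of 27 genes of the cell wall and cell separation tested, 14 fell and 5 rose, with a median of -0.92 (-0.11 as deposited). The calls of cell wall and separation genes were 6 higher and 8 lower as deposited, 3 higher and 7 lower with the preparation term, 4 higher and 9 lower without the parallel 0 h library and 3 higher and 12 lower without either course library. CWP1, a mannoprotein gene, had 1016, 716 and 785 RPKM at 1.5 h, against 2699.7 and 3871 RPKM at 0 h (-2.77), and TIR1, another mannoprotein gene, had 25.7, 26.1 and 21.2 RPKM at 1.5 h, against 1.92 and 0 RPKM at 0 h (3.19). TIR1 lost its call with the preparation term (3.25).

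Genes that build ribosomes fell. Of 74 ribosome biogenesis genes, 56 fell and none rose, with a median of -1.66. NSR1, a nucleolar protein of pre-rRNA processing, had 193, 624 and 137 RPKM at 1.5 h, against 1102 and 918 RPKM at 0 h, a change of -2.83 ± 0.61 (SE, limma adjusted p = 0.012). Replicate 1 was the highest of the 1.5 h libraries, and all were below both 0 h libraries. ERB1, of large-subunit assembly, had 39.1, 129.9 and 35.6 RPKM at 1.5 h, against 168 and 169 RPKM at 0 h (-2.44), and ARX1, an export factor of the large subunit, had 34.3, 105 and 36.7 RPKM at 1.5 h, against 115 and 182 RPKM at 0 h (-2.43). The calls of ribosome biogenesis genes were 0 higher and 15 lower as deposited, 0 higher and 22 lower with the preparation term, 0 higher and 14 lower without the parallel 0 h library, 0 higher and 19 lower without the course 0 h library and 0 higher and 18 lower without the course 1.5 h library. NSR1 lost its call without the parallel 0 h library (-3.27) and without either course library (-2.50). ERB1 lost its call without the parallel 0 h library (-2.83) and without either course library (-2.15). The median stayed negative in every setting run, at -0.85 as deposited.

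Ribosomal protein genes had a median change nearer to that of all genes. Of 136 tested, 48 fell and none rose, with a median of -0.60 that was 0.21 as deposited. The calls of ribosomal protein genes were 18 higher and 11 lower as deposited, 5 higher and 25 lower with quantile normalization, 0 higher and 10 lower with the preparation term, 0 higher and 18 lower without the parallel 0 h library, 0 higher and 15 lower without either course library and 0 higher and 77 lower without replicate 1 of 1.5 h. Summed over 138 genes, of which RPL41A and RPL41B were listed at 0 in all 5 libraries, the values came to 101685, 130404 and 82373 RPKM at 1.5 h, against 107882 and 86794 RPKM at 0 h. The groups overlapped, and the growing cells of the course had 1536330.0 RPKM. RPL3, a core protein of the large subunit encoded by a single gene, had 1249, 2242 and 1051 RPKM at 1.5 h, against 4135 and 4410.4 RPKM at 0 h (-2.42). Most of the others have 2 nearly identical copies. Of 73 mitochondrial ribosomal protein genes, 19 fell, a share near the 25.5% of all genes, and 2 rose, with a median of -0.44 that was 0.37 as deposited. The calls of mitochondrial ribosomal protein genes were 21 higher and 2 lower as deposited, 0 higher and 1 lower with the preparation term, 0 higher and 9 lower without the parallel 0 h library, 4 higher and 6 lower without either course library and 1 higher and 12 lower without replicate 2 of 1.5 h.

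Of 37 translation factor genes, 13 fell and 1 rose, with a median of -0.68 that was 0.14 as deposited. PAB1, the poly(A)-binding protein, had 619, 707 and 464 RPKM at 1.5 h, against 1189 and 1088 RPKM at 0 h, a change of -1.74 ± 0.24 (SE, limma adjusted p = 0.0027). RPG1, a subunit of initiation factor 3, changed by -1.78 and TIF2, for initiation factor 4A, by -1.88, while HCR1 rose by 1.55. RPG1 lost its call without the parallel 0 h library (-1.52). TIF2 lost its call with the preparation term (-1.63). HCR1 lost its call without the parallel 0 h library (1.16) and with the preparation term (1.63). The calls of translation factor genes were 11 higher and 3 lower as deposited, 3 higher and 11 lower with quantile normalization, 0 higher and 3 lower with the preparation term, 0 higher and 5 lower without the parallel 0 h library, 1 higher and 6 lower without either course library and 1 higher and 21 lower without replicate 1 of 1.5 h. Of 19 tRNA synthetase genes, 7 fell and 1 rose, with a median of -0.48 that was 0.33 as deposited. The calls of tRNA synthetase genes were 5 higher and 2 lower as deposited, 0 higher and 3 lower with the preparation term, 0 higher and 2 lower without the parallel 0 h library and 1 higher and 3 lower without either course library. DPS1, for aspartate, changed by -2.10, and TYS1, for tyrosine, rose by 1.08. TYS1 lost its call without the parallel 0 h library (0.89) and with the preparation term (1.04). Of 21 genes of RNA polymerases I and III, 7 fell and 1 rose, with a median of -0.44 that was 0.37 as deposited. The largest subunit of RNA polymerase I, RPA190, changed by -1.66. RPA190 lost its call without the parallel 0 h library (-1.77), without either course library (-1.58), as deposited (-0.85) and with the preparation term (-2.10). The calls of RNA polymerase genes were 7 higher and 0 lower as deposited, 1 higher and 0 lower with the preparation term or without either course library and 1 higher and 1 lower without the parallel 0 h library.

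In the course, footprints and mRNA of the same states can be set side by side, with 1 library each and so without a test. The series also holds mRNA libraries of 0 h and 1.5 h in the parallel set, which were not used here. Changes in this section are relative to the median gene of each assay. Across 5585 genes the footprint and mRNA changes had a correlation of 0.789 in the course, and that of the footprint changes of the parallel set with course mRNA was 0.720, given as descriptions. Of the 1260 genes with higher footprints, 105 had an mRNA change below the median, 8 of them by over 1 on the log2 scale. Of the 1425 with lower footprints, 129 had an mRNA change above the median, 22 of them by over 1. Axis and synaptonemal complex genes had a median footprint change of 4.65 and a median mRNA change of 4.23, and core histone genes 2.85 in footprints and 3.25 in mRNA. Glycolysis genes had -2.44 in footprints and -2.92 in mRNA. Ribosome biogenesis genes had -1.78 in footprints and -0.85 in mRNA. Proteasome genes stood at 0.35 in footprints and -0.25 in mRNA, and middle meiotic genes at -0.46 in footprints and 0.76 in mRNA.

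**Figure D4:**
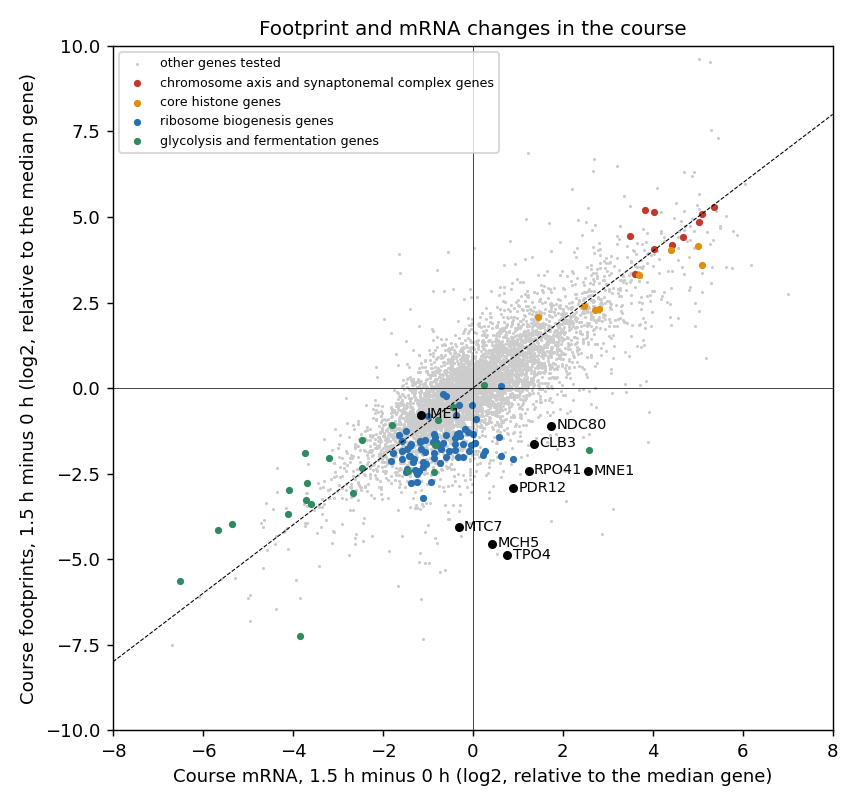
Each point is 1 of 5585 genes, with its mRNA change in the course on the horizontal axis and its footprint change in the course on the vertical axis, both log2 differences, 1.5 h minus 0 h, relative to the median gene, and equality as a dashed line. Axis and synaptonemal complex genes (red) lie near the line at the upper right, ribosome biogenesis genes (blue) lie mostly below it, and NDC80, CLB3, RPO41, MNE1, PDR12, MCH5 and TPO4 have mRNA changes above 0 with footprint changes below 0.

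NDC80 is known for an extended transcript isoform of meiotic prophase that is poorly translated. Its mRNA change in the course was 1.74 and its footprint change -1.10. CLB3, whose mRNA is known to be held back from translation until meiosis II, had an mRNA change of 1.35 and a footprint change of -1.63. IME1 had an mRNA change of -1.15 and a footprint change of -0.79, in the same direction. Of 6 genes with reported long undecoded isoforms (NDC80, HNT1, SWI4, POR1, CYC8 and RED1), RED1 rose and NDC80 fell in footprints. The calls of these genes were 3 higher and 0 lower as deposited. The median footprint change in the course was 0.46 and the median mRNA change 1.93. SWI4, a transcription factor of G1/S genes, had 41.4, 60.2 and 57.0 RPKM at 1.5 h, against 10.4 and 50.1 RPKM at 0 h (0.13, not called), with an mRNA change of 3.74 in the course. These reports may have drawn on samples of this series, so the list is no independent evidence.

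By a rule set after the data were seen, called genes with at least 20 RPKM of course mRNA at both times and no overlap with another reference gene were ranked by the difference between footprint and mRNA change. Of the 6 with the most negative difference, TPO4, a polyamine transporter gene, had 1.49, 3.84 and 4.32 RPKM at 1.5 h, against 44.1 and 23.6 RPKM at 0 h, with a course change of -4.88 in footprints and 0.76 in mRNA. MNE1, of mitochondrial splicing, had 8.75, 13.5 and 10.0 RPKM at 1.5 h, against 31.2 and 58.6 RPKM at 0 h, with a course change of -2.43 in footprints and 2.56 in mRNA. RPO41, the mitochondrial RNA polymerase, had 10.1, 19.1 and 13.0 RPKM at 1.5 h, against 35.6 and 36.8 RPKM at 0 h, with a course change of -2.43 in footprints and 1.24 in mRNA. In these 3 genes all 1.5 h footprint libraries were below both 0 h libraries. PDR12, a transporter of weak acids, had a course change of -2.93 in footprints and 0.89 in mRNA. MCH5, a riboflavin transporter, had a course change of -4.54 in footprints and 0.43 in mRNA, and MTC7 had a course change of -4.07 in footprints and -0.31 in mRNA. Mean 1.5 h footprints of TPO4, PDR12 and MCH5 were only 3.22, 3.54 and 2.76 RPKM. TPO4, PDR12 and MCH5 thus reached the mean of 5 RPKM needed for testing only through their 0 h values. The 6 with the most positive difference were DAL2, SWC7, CST9, MCM16, MEI5 and SAE3. MCM16, MEI5 and SAE3 were listed at 0 in the course 0 h library, so their course footprint changes depend on the pseudocount. Within the parallel set their footprint changes were 2.74, 5.56 and 2.82, beside course mRNA changes of 2.66, 5.28 and 5.02. Those of DAL2, SWC7 and CST9 within the parallel set were 3.68, 3.34 and 2.92. DAL2, allantoicase, had 714, 1687 and 906 RPKM at 1.5 h, against 14.5 and 52.4 RPKM at 0 h, with a course change of 4.82 in footprints and 1.69 in mRNA. CST9 had 174, 169 and 191 RPKM at 1.5 h, against 0.924 and 12.2 RPKM at 0 h, with a course change of 5.80 in footprints and 2.20 in mRNA. MCM16, of the inner kinetochore, had 131, 153 and 149.9 RPKM at 1.5 h, against 0 and 11.6 RPKM at 0 h, and SWC7, of a chromatin remodelling complex, had 153, 156 and 184 RPKM at 1.5 h, against 3.78 and 8.35 RPKM at 0 h. MCM16 had a course change of 6.35 in footprints and 2.66 in mRNA, and SWC7 had a course change of 4.30 in footprints and 0.82 in mRNA. MCH5, with a fitted change of -3.03 over the 5 libraries, lost its call without replicate 2 of 1.5 h (-3.01), as deposited (-2.22) and with the preparation term (-3.57), and its change was -4.59 without the parallel 0 h library and -1.86 without the course 1.5 h library. MCM16, with a fitted change of 4.26, lost its call with the preparation term (4.50), and its change was 2.74 without either course library. The mRNA columns of the 2 times were scaled to different totals, so mRNA changes are given only relative to the median gene.

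The footprint library of the MATa/a strain was made after 4.5 h in the same medium. Its change and that of the course 1.5 h library are both taken against the course 0 h library, which they share, so values are given side by side with no measure of likeness, and the times differ. Axis and synaptonemal complex genes had a median of 4.65 at 1.5 h and -0.86 in MATa/a. Strand exchange genes had 3.84 at 1.5 h and 0.17 in MATa/a, core histone genes 2.85 at 1.5 h and 0.77 in MATa/a, and replication genes 2.90 at 1.5 h and 0.87 in MATa/a. IME2, the kinase gene, changed by 4.40 at 1.5 h and by 0.11 in MATa/a. Some other lists had closer values. Allantoin and nitrogen genes had 1.80 at 1.5 h and 1.92 in MATa/a, and methionine genes 1.23 at 1.5 h and 1.57 in MATa/a. Chaperone genes had -1.85 at 1.5 h and -1.79 in MATa/a, and ribosome biogenesis genes -1.78 at 1.5 h and -1.62 in MATa/a. Not so close were glycolysis genes, with -2.44 at 1.5 h and -0.21 in MATa/a, and cytosolic ribosomal protein genes, with -0.77 at 1.5 h and 0.81 in MATa/a.

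Over the 9 states of the course other than MATa/a, 1 library each, list medians relative to the median gene of the library place the interval in its sequence. Axis and synaptonemal complex genes stood at -4.97 in growing cells and -2.08 at 0 h. They then stood at 2.71 at 1.5 h and 3.41 at 3 h, and later at 3.23 (4.5 h) and 1.61 (8 h). At 0, 1.5, 3 and 6 h core histone genes stood at 3.91, 6.66, 6.14 and 4.68, and replication genes at -1.25, 1.08, 0.71 and -0.05 at the same times. Both were highest at 1.5 h among the states of the course. Allantoin and nitrogen genes stood at -3.27 in growing cells, -0.40 at 0 h, 2.08 at 1.5 h and 1.13 at 3 h. Glycolysis genes were lowest at 1.5 h (2.98), and stood at 6.43 at 0 h and 7.20 in spores. With 1 library per state no order between neighbouring times is tested.

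**Figure D5:**
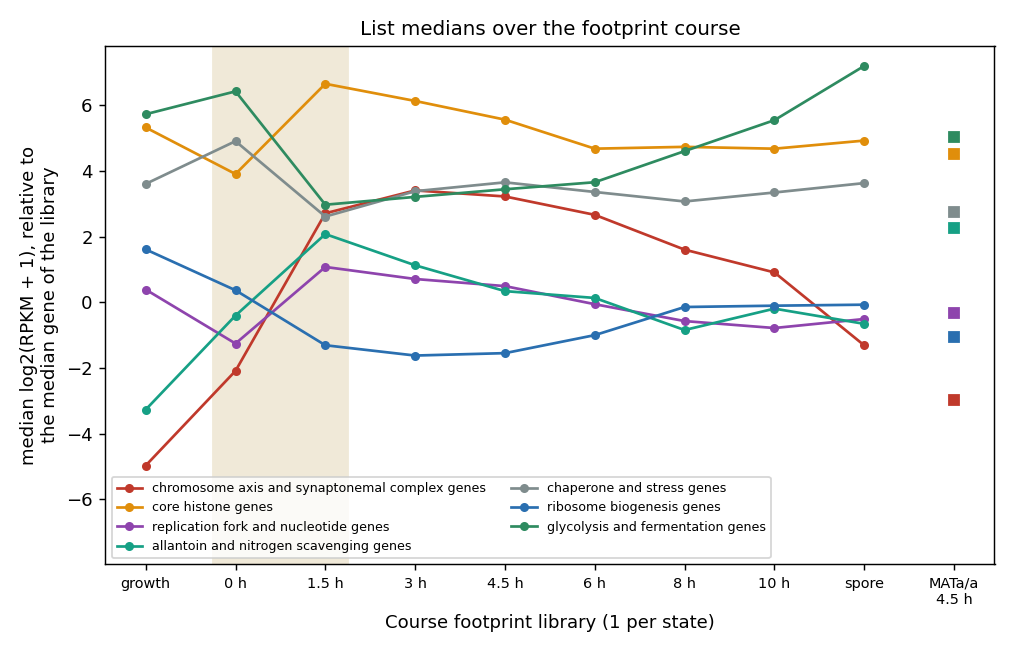
Median log2(RPKM + 1) of 7 gene lists, relative to the median gene of each library, over the footprint libraries of the course, with 0 h and 1.5 h shaded and the MATa/a library at 4.5 h as squares. Axis and synaptonemal complex genes stand at 2.71 at 1.5 h, against -2.08 at 0 h, and glycolysis genes at 2.98 at 1.5 h, against 6.43 at 0 h.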

How the data were processed

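Ribosome footprints were read at 1.5 h (3 libraries) and 0 h (2 libraries) from deposited tables of RPKM values, normalized by the authors, per the file headers. CASAVA, bcl2fastq 2.17 and Bowtie2 are named in the submitters' processing notes, with no role or order. How reads were counted (tool, build, annotation, strand and reads that match several genes) is not given in the sources of these data used here. Overlapping genes and near-identical copies are therefore uncertain. The mRNA columns of 1.5 h and 0 h, also RPKM per the file headers, were scaled by the authors to different totals, and total RNA values were not used here. In the parallel table, 443 genes are listed out of order: their 1.5 h values matched the course by row position (correlation 0.982 in both libraries) and not by name (0.05), whereas the 0 h column matched by name (0.938), and each was assigned that way. Left out were 5 lines that name no gene, and 38 columns of other samples were not used. Of 6679 genes listed, 5994 matched a RefSeq entry, used for names, lengths and neighbours only.

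Whole reads were estimated from RPKM steps with gene lengths less 60 bases. The share of values that came out whole, within 0.02 of a read and up to 100 reads, was 85.3 to 90.7% per library, so no count test was run. Values were taken as log2(RPKM + 1), which understates changes of low genes, each library was centred on its median, and genes whose mean reached 5 RPKM were tested. The test was limma 3.58.1 in R 4.3.3, with terms for time and table (course or parallel), trended empirical Bayes moderation with 2 residual degrees of freedom, and Benjamini-Hochberg adjustment over all 5585 genes. It was checked on simulated data, with 50 genes changed at each size. There it called 4% of changes of 1 on the log2 scale, 54% of those of 2 and 78% of those of 4. In the data 48.1% of genes were called, so these shares may differ there. A gene that was not called is thus not shown to be unchanged. Alternatives were another scaling, pseudocount, filter, block or set of libraries, each library left out in turn, and a preparation term. That term set the parallel 1.5 h libraries apart from the other libraries. Python 3.11.15 (numpy 2.4.6, pandas 2.3.3, scipy 1.17.1, matplotlib 3.10.9) was used elsewhere.

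Gene lists and members were chosen with earlier results of these data known. Named genes are the 12 largest rises and falls called (standard symbols only, groups apart), up to 4 largest called members of a list, and 6 meiotic regulators. Further genes were named for their roles after their values were seen. A planned search for promoter motifs was not run, because no sequences were used here. A few named genes are not reported here.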

Additional observations from a re-analysis of the deposited data

How the results depend on the processing

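The counts of 1260 genes higher and 1425 lower at 1.5 h were within 1.5 times under another pseudocount (0.1 or 5 RPKM), no filter or a minimum of 20 RPKM, no table term, quantile normalization, no trend, the parallel table alone, all 11 footprint libraries of 0, 1.5, 3 and 6 h, and both other ways to treat genes listed out of order. Exceptions were the values as deposited, with 2718 higher and 538 lower, and the preparation term, chosen after the data were seen, with 563 higher and 576 lower. Leaving out each library in turn gave 848 to 1214 genes higher and 757 to 1466 lower, both lowest without the parallel 0 h library, and the 757 lower were the only such count outside 1.5 times. In those fits a lone 0 h library was assumed to vary like the other group. Since changes were fitted within each set, the change without the parallel 0 h library is that of the course alone. Changes without either course library are those of the parallel set alone. These runs and that of the parallel table alone are therefore not separate checks. The replicate block by the labels' numbers gave 1328 higher and 1552 lower. Whether the numbers pair the samples was not shown: deviations of same-set libraries had correlations of 0.24 in the course and 0.13 and 0.06 in the parallel set, with 2 pairs at most. No gene called in the reported analysis was called in the opposite direction under any of these settings. Of 245 genes and regulators named or ranked, calls were lost for 66 with the preparation term, 39 without the parallel 0 h library, 28 without the course 0 h library, 28 without the course 1.5 h library, 27 as deposited, 16 without replicate 2 of 1.5 h and 15 with quantile normalization. The signs that turned were those of small or uncertain differences. ADH2 stood at 0.026 with the preparation term, 1.19 with quantile normalization (called) and 0.54 as deposited, and at -0.52 to 0.044 with each library left out. IME4 stood at -0.011 in the parallel table alone and at -0.012 to 0.44 with each library left out, DAP2 at 0.002 and NDT80 at 0.010 as deposited, and SEM1, a proteasome gene, at -1.31 with columns assigned by name. The causes were not tested. The 0 h libraries held fewer reads than those of 1.5 h, which limits low genes.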

Other observations

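The gene with the highest footprint RPKM in both 0 h libraries was YDR278C, listed without a standard symbol. RPKM is scaled to gene length, so this is not a rank by number of footprints. It had 17683, 76751 and 116709 RPKM at 1.5 h, against 314357 and 362930 RPKM at 0 h. All 1.5 h libraries were below both 0 h libraries, the 1.5 h libraries spread over more than those of 0 h, and the change was -3.70 ± 0.51 (SE, limma adjusted p = 0.0027). Its mRNA change in the course, from 1 library per time and relative to the median gene, was 0.54. The largest fitted rise among genes without a standard symbol was that of YPL152W-A, with 1226, 550.3 and 1469 RPKM at 1.5 h and listed at 0 in both 0 h libraries, so no fold is given.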
